A study of Mus musculus with 24 samples.

Results

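The tripartite motif (TRIM) genes encode proteins with a RING domain, 1 or more B-boxes and a coiled coil. They were taken as the rows of the deposited count table whose GENCODE M21 symbol is Trim followed by a number and optional letters. The rule found 67 members among 39017 gene IDs. Of these, 46 had enough counts to enter the tests, which covered 16248 genes in all. Members were described in whole dorsal skin of female C3H/HeJ mice, about 30 weeks old at termination, in 4 groups of 6 mice or biopsies. Healthy mice and mice with graft-induced alopecia areata (AA) carry the treatment label None and were sampled at week 12, although the titles of the AA samples also carry Vec, which the labels do not explain. Systemic JAK1i libraries came from AA mice after 4 weeks of Cmpd A, a JAK1 inhibitor eaten once daily at 100 mg/kg, biopsied alive at week 4. Off treatment libraries came, by the study's methods, from the same 6 treated mice at week 12, 8 weeks after the last dose, so these 2 groups are not independent, and the labels do not say which libraries share a mouse. The disease is induced by a skin graft, and all mice are of 1 strain and sex. Systemic JAK1i skin was sampled at week 4 and the other groups at week 12, so comparisons with systemic JAK1i also differ in week of sampling.

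Most TRIM proteins are E3 ubiquitin ligases: the RING domain passes ubiquitin to a target that the C-terminal domain binds. One branch of the family is induced by interferon and acts in antiviral defence, either by binding viral proteins or by tuning the sensors of viral RNA and DNA. Other branches serve striated muscle, where they turn over sarcomere proteins, or silence chromatin, organise microtubules or act in epithelia. JAK1 carries the signal of the interferon receptors to STAT proteins, which bind short promoter elements of interferon-stimulated genes.

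Each library was placed on 4 scores, each the mean log2 CPM (counts scaled to a common library size) over a list of genes that holds no TRIM member. The interferon score (33 genes) averaged 4.09 in healthy skin and 6.43 in AA, then 3.67 on JAK1i and 6.19 off treatment, and AA was 2.34 above healthy (exact permutation test, two-sided, p = 0.00216, the smallest these groups allow, adjusted p = 0.00742 over 24 score tests). The anagen hair score (19 genes of the growing hair shaft and its sheath) moved with it, from 1.79 in healthy skin to 7.86 in AA, then 2.67 on JAK1i and 6.12 off treatment, so interferon and hair state cannot be told apart between these groups. Off treatment libraries A and E stood apart, with anagen hair scores of 3.20 and 1.52 beside 7.33 to 8.42 in the other 4. The muscle score (20 genes) ran from 4.04 to 9.79 among healthy libraries, lowest in healthy A and E, and from 9.57 to 9.95 in systemic JAK1i, which was 1.25 above AA (exact permutation test, adjusted p = 0.00742). The interfollicular keratinocyte score (21 genes) stayed between 8.89 and 9.91 in all 24 libraries. Its genes did not all hold still: 7 passed as higher and 4 as lower in AA than in healthy skin. In systemic JAK1i the score was 0.265 below AA, which did not pass (exact permutation test, adjusted p = 0.0519). T cell markers (8 genes) summed to 25.5 to 49.1 CPM in healthy skin and 27.7 to 141.5 in AA, then 20.7 to 39.7 on JAK1i and 47.2 to 125.5 off treatment, and 1 of the 8 was at 0 in all healthy libraries. Macrophage markers (8 genes) summed to 198 to 647 CPM in healthy skin and 299 to 813 in AA, then 254 to 879 on JAK1i and 252 to 678 off treatment, and 2 of the 8 passed as lower on JAK1i than in AA, beside 7 of the 8 T cell markers. Whether these cells carry part of any TRIM change was not tested, and in whole skin fewer cells of a type and less RNA per cell cannot be told apart. Library totals ran from 3444193 to 11233020 counts.

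Promoters are shown because the members that moved with interferon include several that carry the same short element. RefSeq promoters (GRCm38.p6, 250 bases before to 50 after a start) were given for 52 of the 67 members, 66 promoters in all. The core of the interferon-stimulated response element was searched as GAAANNGAAA on either strand. It occurred in 10 of the 66 TRIM promoters (15.15%), beside 1131 of 32851 promoters of all genes (3.44%). By gene, 9 of 52 members (17.31%) held it in any promoter: Trim2, Trim5, Trim12a, Trim12c, Trim21, Trim26, Trim30a, Trim30d and Trim34a, of which 6 sit in the antiviral cluster on chromosome 7. In the sequences below, written 5′ to 3′ on the strand of the gene, the capitals mark the match, which is the reverse complement of the searched letters where the element lies on the other strand. Where a match lies before the start the sequence ends at or before the start, and otherwise at the end of the match.
Trim30a promoter, chr7:104465194-104465269, minus strand: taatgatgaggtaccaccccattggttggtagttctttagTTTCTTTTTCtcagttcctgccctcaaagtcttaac
Trim30d promoter, chr7:104507850-104507930, minus strand: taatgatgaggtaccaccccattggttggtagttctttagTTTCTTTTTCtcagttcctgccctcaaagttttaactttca
Trim12c promoter, chr7:104353350-104353418, minus strand: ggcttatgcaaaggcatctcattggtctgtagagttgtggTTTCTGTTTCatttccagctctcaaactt
Trim34a promoter, chr7:104244427-104244476, plus strand: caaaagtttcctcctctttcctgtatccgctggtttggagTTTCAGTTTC
Trim21 promoter, chr7:102565454-102565509, minus strand: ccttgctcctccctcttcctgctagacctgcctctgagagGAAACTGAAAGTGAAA
Trim26 promoter, chr17:36836946-36837041, plus strand: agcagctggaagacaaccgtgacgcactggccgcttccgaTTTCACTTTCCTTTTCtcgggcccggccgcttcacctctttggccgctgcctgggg

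The printed stretches of Trim30a and Trim30d were identical at 75 of 76 positions. Trim21 held 2 overlapping matches beginning 14 and 20 bases after the start, and Trim26 2 overlapping matches beginning 160 and 154 bases before it. The gamma-activated site core, TTCNNNGAA on either strand, was found in 7 of 66 TRIM promoters (10.61%) and in 8.3% of all promoters, and the MEF2 core, CTANNNNTAG, in 0 of 66 and in 3.69%. A match is a description of letters, and a promoter without one may hold other forms of the site.

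Between AA and healthy skin, 20 of the 46 tested members passed the test, 15 higher and 5 lower in AA, or 43.5% beside 40.2% of all genes tested. In systemic JAK1i against AA, 28 passed, 10 higher and 18 lower, or 60.9% beside 47.7%. In off treatment against systemic JAK1i, 24 passed, 18 higher and 6 lower, or 52.2% beside 35.9%. In off treatment against healthy, 17 passed, 13 higher and 4 lower, or 37% beside 32.7%, and 11 passed without healthy libraries A and E, which hold the least muscle RNA. The share of members called was near that of all genes in the comparisons with healthy skin. It was further above that of all genes in the comparisons with systemic JAK1i. Whether the family differs from other genes in this was not tested. Groups did not overlap for 10, 15, 9 and 6 members in these 4 comparisons, where 14.3%, 26.9%, 18% and 8.97% of all genes did not overlap. The median log2 fold change of the members was 0.17, -0.056, 0.11 and 0.17, beside 0.0012, -0.0061, -0.0014 and 0.0093 over all genes.

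No member passed in systemic JAK1i against healthy, where 1.05% of all genes passed. There, 13 members had an unadjusted p under 0.05 by edgeR, DESeq2 called 0 and limma-voom with quality weights 11, and without healthy replicate F edgeR called 3. None passed in off treatment against AA either, where 1.37% of all genes passed, 6 members had an unadjusted p under 0.05, and DESeq2 and limma-voom called 0. The deposited TPM values, tested without centring each library, gave 1 higher and 1 lower in AA against healthy, 25 and 2 in systemic JAK1i against AA, 0 and 35 in off treatment against systemic JAK1i, and 0 and 28 in off treatment against healthy. On that scale the median of all genes itself moved by -0.29, 0.65, -1.16 and -0.80 (log2), and the changes below are relative to the bulk of genes, as TMM scaling gives them.

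**Figure D1:**
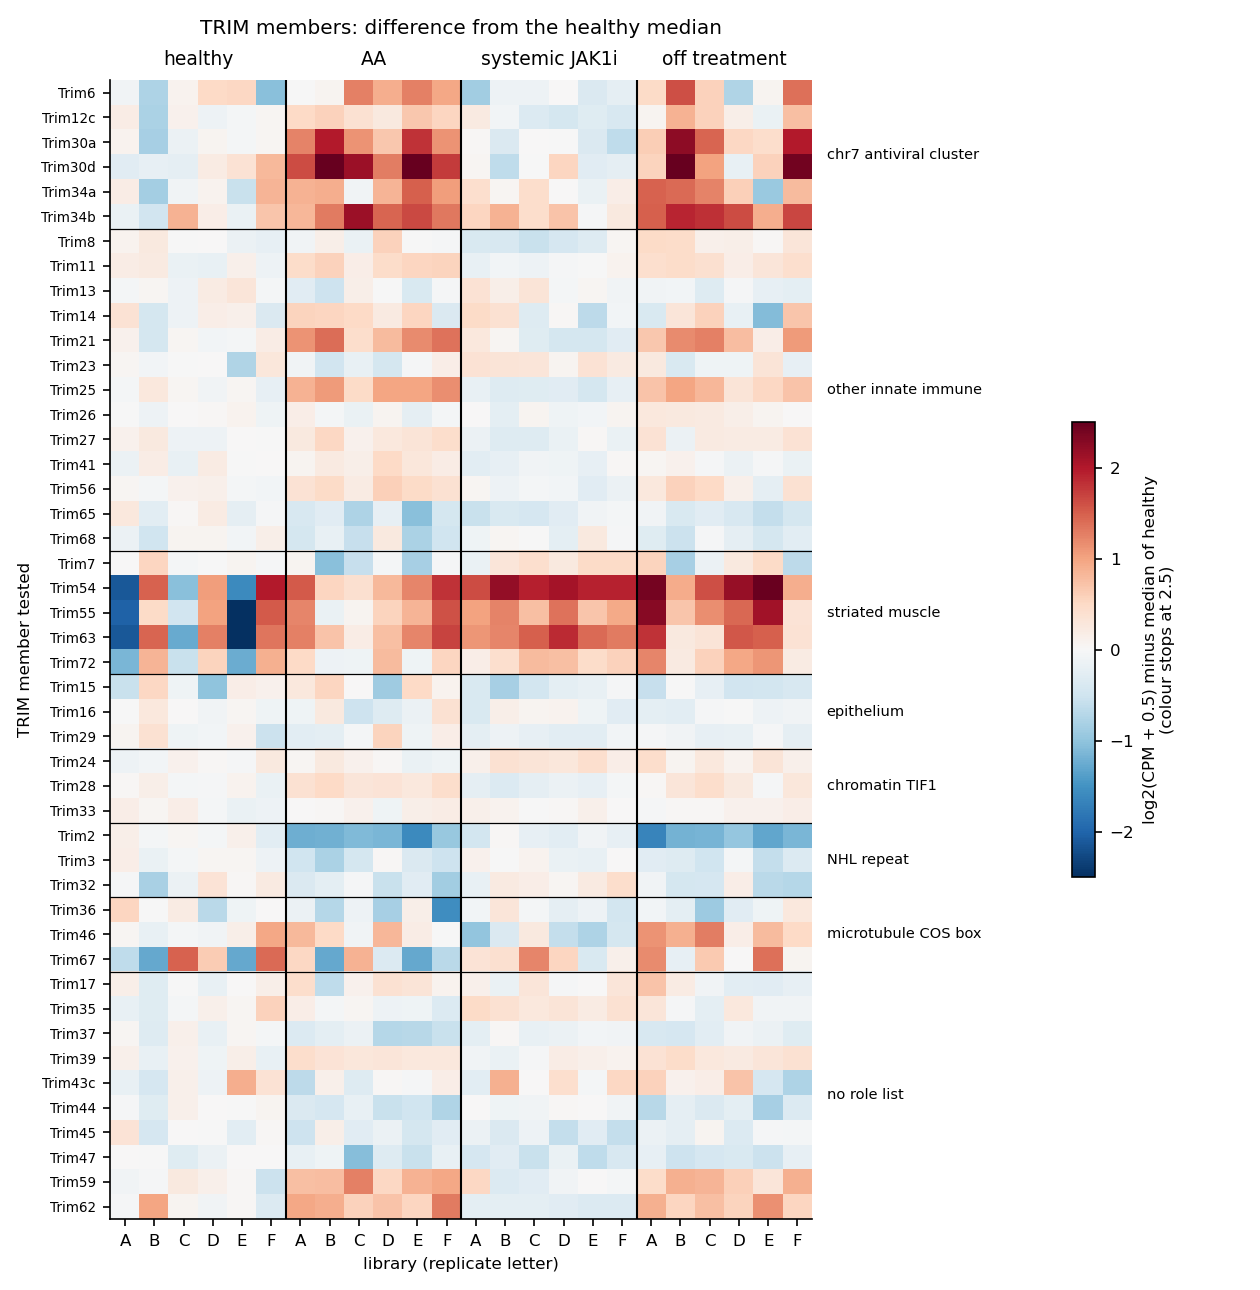
Heat map of the 46 tested TRIM members (rows, by role) in 24 libraries (columns, by group and replicate letter). Colour is log2(CPM + 0.5) minus the median of the 6 healthy libraries. In AA, 5 of the 6 tested members of the antiviral cluster passed as higher, beside 20.9% of all genes tested, and Trim2 passed as lower. The muscle members follow single libraries, lowest in healthy A and E.

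The antiviral cluster on chromosome 7 holds 10 members on the list, the mouse relatives of the retrovirus restriction factor TRIM5 and of TRIM6, TRIM22 and TRIM34. Of its 6 tested members, 5 were higher in AA than in healthy skin and none lower, beside 20.9% and 19.3% of all genes tested. Trim30a, which restrains Toll-like receptor signalling to NF-kB, measured 9.66 to 18.9 (median 17.6) CPM in healthy, 28.5 to 71.3 (median 40.7) for AA, 11.2 to 17.97 (median 15.7) under JAK1i and 24.1 to 85.1 (median 38.4) in off treatment skin. Every AA and off treatment library was above every healthy and every systemic JAK1i library. Trim30a was higher in AA by a log2 fold change of 1.53 ± 0.29, adjusted p = 0.00024 (SE, edgeR quasi-likelihood test, n = 6 a group), lower in systemic JAK1i than in AA (-1.62 ± 0.28, adjusted p = 9.4e-05) and higher again off treatment than on it (1.62 ± 0.28, adjusted p = 0.00016).

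Its neighbour Trim30d was scarce, at 0.142 to 0.857 (median 0.286) CPM in healthy and 1.38 to 6.89 (median 2.53) for AA. It passed the filter through 5 AA and 2 off treatment libraries and no healthy or systemic JAK1i library, with 12 counts over the healthy group, so it entered the tests only through groups where it is high, and it counts in the calls, slopes and shared lists with that limit. Its fitted log2 fold change in AA was 3.18 ± 0.74, adjusted p = 0.0004, and it was lower in systemic JAK1i than in AA (-3.48 ± 0.73, adjusted p = 9.8e-05). Off treatment libraries spread from 0.180 to 3.91 CPM, with B and F high and the other 4 near or among the healthy values. The call against healthy was lost without off treatment replicate B (log2 fold change 1.76, adjusted p = 0.068) or F (1.83, adjusted p = 0.061). Trim12c, a relative of TRIM5, measured 22.8 to 45.5 (median 39.9) CPM in healthy and 47.05 to 63.5 (median 56.9) for AA, groups that did not overlap (0.56 ± 0.17, adjusted p = 0.01), and was lower in systemic JAK1i (-0.70 ± 0.17, adjusted p = 0.0016). Trim34b measured 0.703 to 2.55 (median 1.19) CPM in healthy, 2.49 to 6.85 (median 3.92) for AA, 1.14 to 2.58 (median 1.86) under JAK1i and 2.65 to 5.77 (median 4.75) off treatment, and rose in AA by 1.48 ± 0.30, adjusted p = 0.00038.

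Trim34a was the least certain of the 5. It measured 2.11 to 8.06 (median 4.23) CPM in healthy and 3.92 to 12.8 (median 8.28) for AA, which overlap (0.93 ± 0.33, adjusted p = 0.028). The call was lost without AA replicate E (adjusted p = 0.079) or healthy replicate B (0.061), C (0.055) or E (0.061). An antisense gene, Gm47248, shares 23.5% of its exon bases, and the strand setting of the counting is not known. Trim6, which makes unanchored ubiquitin chains in interferon signalling, measured 0.343 to 1.99 (median 1.25) CPM in healthy and 1.25 to 3.69 (median 2.83) for AA (1.07 ± 0.45, adjusted p = 0.06), and passed only in systemic JAK1i against AA (-1.35 ± 0.45, adjusted p = 0.015) and off treatment against systemic JAK1i (1.34 ± 0.45, adjusted p = 0.02). The second of these was lost without off treatment replicate B (adjusted p = 0.088) or F (0.064), and both turn direction in the TPM table. Trim6 passed the filter through 2 healthy, 4 AA and 3 off treatment libraries and 0 systemic JAK1i libraries, so both calls carry that limit.

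The cluster members are related genes, and the 2 deposited tables gave some of them very different levels. Trim12a had 5 counts over all 24 libraries, beside 6108 for Trim12c, yet its group means in the TPM table were 2.6 to 4.31, beside 7.18 to 10.1 TPM for Trim12c. Trim6 had 229 counts and group means of 2.6 to 5.61 TPM. Whether reads shared between related members account for this was not tested, and values of Trim12a, Trim12c and Trim6 are uncertain. The remaining cluster members, Trim5 (29 counts), Trim30b (55) and Trim30c (151), did not reach the tests, and their counts summed over AA libraries were 7, 20 and 55, beside 7, 8 and 29 over healthy libraries.

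Among 13 tested members of other innate immune roles, 6 were higher and 1 lower in AA than in healthy skin. Over all genes tested, 20.9% were higher and 19.3% lower. Trim21, the cytosolic antibody receptor that marks antibody-coated viruses for degradation, measured 13.3 to 20.8 (median 18.2) CPM in healthy, 24.96 to 48.97 (median 41.00) for AA, 13.4 to 21.9 (median 14.8) under JAK1i and 20.6 to 44.2 (median 35.1) in off treatment skin. No AA library fell within the range of the healthy or systemic JAK1i libraries, and the lowest off treatment library, E, was below the highest healthy one. Trim21 rose in AA (1.13 ± 0.18, adjusted p = 4.4e-05), was lower in systemic JAK1i (-1.28 ± 0.18, adjusted p = 8.3e-06) and higher off treatment than on it (1.10 ± 0.18, adjusted p = 8.1e-05).

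Trim25, the ligase that activates the RNA sensor RIG-I, was more abundant, at 61.05 to 85.2 (median 70.5) CPM in healthy, 98.4 to 158 (median 141) for AA, 51.8 to 61.5 (median 57.5) under JAK1i and 88.6 to 141 (median 116) off treatment. It rose in AA by 0.93 ± 0.11, adjusted p = 1.3e-06, and in systemic JAK1i against AA its difference of -1.24 ± 0.11, adjusted p = 4.9e-08 had the smallest adjusted p of the 46 members. The systemic JAK1i median lay below the healthy one, a difference that did not pass (-0.30 ± 0.11, adjusted p = 0.15). Trim56, which acts in STING and Toll-like receptor signalling, moved less: 93.6 to 107 (median 97.6) CPM in healthy and 113 to 148 (median 132) for AA, not overlapping (0.40 ± 0.10, adjusted p = 0.0025), and lower in systemic JAK1i (-0.53 ± 0.10, adjusted p = 0.00016).

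Smaller rises in AA were seen for Trim11 (0.45 ± 0.08, adjusted p = 0.0002), Trim27 (0.30 ± 0.09, adjusted p = 0.011) and Trim41 (0.22 ± 0.08, adjusted p = 0.035). Trim11 and Trim27 regulate innate signalling, and both were lower in systemic JAK1i than in AA (-0.53 ± 0.08 and -0.50 ± 0.09, adjusted p = 2.8e-05 and 0.0001). Trim41, at 36.9 to 48.9 (median 42.1) CPM in healthy and 44.02 to 59.2 (median 48.8) for AA, lost its call without any 1 of AA replicates B, D or E or healthy replicates A, C, E or F, with adjusted p of 0.057, 0.11 and 0.063, then 0.093, 0.1, 0.061 and 0.062. Trim65, a ligase for the RNA sensor MDA5, was the 1 lower member, at 13.7 to 20.2 (median 16.6) CPM in healthy and 7.82 to 14.5 (median 12.3) for AA (-0.52 ± 0.14, adjusted p = 0.0045), and its systemic JAK1i libraries, 11.2 to 16.1 (median 13.2) CPM, did not differ from AA by the test (0.21 ± 0.14, adjusted p = 0.21).

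Trim8, which acts on STAT and NF-kB signalling, had a different course. It measured 39.96 to 54.8 (median 45.9) CPM in healthy and 40.9 to 68.4 (median 45.3) for AA, a difference that did not pass (0.08 ± 0.12, adjusted p = 0.63), but was lower in systemic JAK1i than in AA (-0.43 ± 0.12, adjusted p = 0.0058) and higher off treatment than on it (0.60 ± 0.12, adjusted p = 0.00047). Trim26 passed only in off treatment against systemic JAK1i (0.21 ± 0.07, adjusted p = 0.026), at 52.2 to 65.5 (median 60.6) CPM on and 62.9 to 74.9 (median 71.05) off treatment. That call was lost without any 1 of off treatment replicates A, B or C or systemic JAK1i replicates B, D or E, with adjusted p of 0.056, 0.063, 0.063, 0.082, 0.061 and 0.056. Its promoter holds the interferon element shown above. Trim14, the adaptor of the mitochondrial antiviral complex, passed in no group comparison (0.43 ± 0.27, adjusted p = 0.21 in AA), at 3.69 to 6.82 (median 5.23) CPM in healthy and 3.97 to 7.92 (median 7.71) for AA. The opposite-strand gene Nans shares 31.3% of its exon bases. Trim13, a ligase of the endoplasmic reticulum, and Trim23 were the 2 members of this list higher in systemic JAK1i than in AA (0.30 ± 0.12, adjusted p = 0.036 and 0.44 ± 0.14, adjusted p = 0.012). Trim13 lost that call without any 1 of AA replicates A, B or E or systemic JAK1i replicates A, B or C, with adjusted p up to 0.1 (AA replicate B). Trim38, an inhibitor of Toll-like receptor signalling, had 1 count in all.

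**Figure D2:**
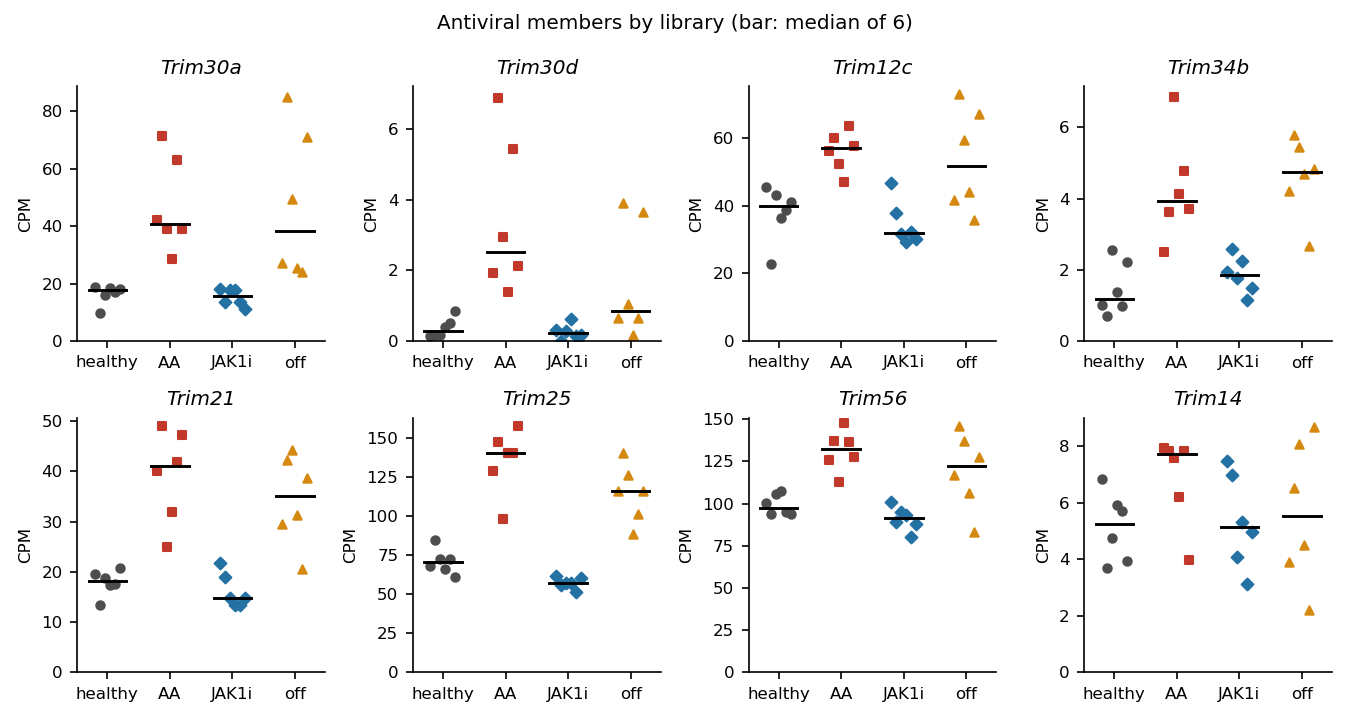
CPM (linear axes from 0) of 8 antiviral TRIM members in 6 libraries of each group, with a bar at the group median. In Trim30a and Trim25 every AA library lies above every healthy and JAK1i library, while Trim14 overlaps in all groups.

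Whether members followed interferon state among libraries of 1 group was asked with the score in the fit beside the group. On the interferon score 9 of 46 members (19.6%) had a slope, 8 positive and 1 negative, beside 8.07% of all genes tested. The positive slopes (log2 change per unit of score) were 0.60 ± 0.08, adjusted p = 2e-05 for Trim21, 0.88 ± 0.14, adjusted p = 0.00019 for Trim30a, 0.30 ± 0.05, adjusted p = 0.00069 for Trim56 and 0.50 ± 0.09, adjusted p = 0.00096 for Trim12c. These 4 passed with each library left out in turn and without off treatment libraries A and E together. With the TPM table and limma 0 members had a slope on this score (7 at an unadjusted p under 0.05). With all 4 scores in 1 fit Trim56 did not pass (adjusted p = 0.057).

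The other 4 positive slopes rested on single libraries. Without off treatment replicate E, adjusted p rose to 0.19 for Trim34a, 0.084 for Trim30d, 0.066 for Trim25 and 0.23 for Trim14, from 0.021, 0.025, 0.027 and 0.033. Without off treatment replicate B it was 0.057, 0.098, 0.11 and 0.057. Leaving out off treatment replicate B or E brought the count of members with a slope from 9 to 5. Trim30d was also lost without AA replicate B (adjusted p = 0.065) or off treatment replicate D (0.056) or F (0.055), Trim25 without AA replicate C (0.076) or off treatment replicate D (0.057), and Trim14 without off treatment replicate C (0.054) or F (0.077) or systemic JAK1i replicate A (0.065).

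Of the 8 members with a positive slope, 7 had a RefSeq promoter and 5 of these held the interferon element: Trim12c, Trim21, Trim30a, Trim30d and Trim34a. Of the 37 members with no slope, 25 had a promoter and 2 held it, Trim2 and Trim26. Trim25 and Trim56 had none in the searched window. The 5 are not separate cases, because the printed stretches of Trim30a and Trim30d are nearly identical. Trim30d also entered the tests only through groups where it is high, and the slopes of Trim30d and Trim34a rested on single libraries. Whether the element has a part in the slopes was not tested. Several members that rose in AA had no slope on the interferon score, among them Trim34b (0.15 ± 0.22, adjusted p = 0.72), Trim59 (0.20 ± 0.11, adjusted p = 0.27), Trim28 (0.11 ± 0.06, adjusted p = 0.22) and Trim39 (0.03 ± 0.06, adjusted p = 0.78).

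Of 3 tested NHL-repeat members, 2 were lower in AA than in healthy skin, beside 19.3% of all genes tested. All 3 were higher in systemic JAK1i than in AA, beside 22.9% of all genes. Trim2, a ligase best known in neurons, where it marks neurofilament light chain, measured 240.1 to 318 (median 287) CPM in healthy, 94.5 to 148 (median 127) for AA, 208 to 292 (median 248) under JAK1i and 91.5 to 147 (median 127) in off treatment skin. The AA and off treatment ranges lay wholly below the healthy and systemic JAK1i ranges. Trim2 fell in AA by 1.20 ± 0.11, adjusted p = 1e-07 on the log2 scale, the smallest adjusted p of the 46 members in that comparison, was higher in systemic JAK1i than in AA by 1.004 ± 0.11, adjusted p = 4.7e-07, and lower off treatment than on it (-1.03 ± 0.11, adjusted p = 6.9e-07). Its slopes on the interferon (-0.05 ± 0.09, adjusted p = 0.78) and anagen hair scores (0.01 ± 0.02, adjusted p = 0.75) did not pass. Off treatment libraries A and E, which had low anagen hair scores, measured 91.5 and 115 CPM, the 2 lowest of that group. Adipocyte and endothelial markers fell in AA in the same libraries, from 211.5 to 1389 CPM summed over 6 adipocyte genes in healthy to 115.8 to 547 in AA, and from 122 to 272 over 5 endothelial genes to 38.6 to 111, and their part in the Trim2 values was not tested.

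Trim3, its closest relative, was lower in AA by a smaller amount (-0.41 ± 0.11, adjusted p = 0.0047), at 33.5 to 42.4 (median 37.9) CPM in healthy and 21.6 to 38.6 (median 27.1) for AA, and higher in systemic JAK1i than in AA (0.39 ± 0.11, adjusted p = 0.0048). Trim32, the ligase mutated in a limb-girdle muscular dystrophy, was not called in AA against healthy (-0.35 ± 0.18, adjusted p = 0.13) but was higher in systemic JAK1i than in AA (0.54 ± 0.18, adjusted p = 0.016), at 7.93 to 14.4 (median 11.8) CPM in AA and 13.03 to 20.2 (median 16.96) under JAK1i. Trim71, the stem cell member of the branch, had 152 counts in all, too few to test.

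Of the chromatin members, Trim28, the corepressor that KRAB zinc finger proteins recruit, rose in AA (0.37 ± 0.07, adjusted p = 0.0004), from 116 to 144 (median 130.2) CPM in healthy to 156 to 184 (median 167), with no overlap, and was lower in systemic JAK1i at 103 to 126 (median 112) CPM (-0.57 ± 0.07, adjusted p = 3.1e-06). It was higher off treatment than on it (0.42 ± 0.07, adjusted p = 0.00015), a difference that turns direction in the TPM table with no filter or with a pseudocount of 1. Trim24, a nuclear receptor cofactor, passed only in systemic JAK1i against AA (0.25 ± 0.08, adjusted p = 0.015). Trim33, the transforming growth factor beta pathway ligase, stayed between 80.9 and 102.6 CPM in all 24 libraries and passed in no comparison.

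Members outside the role lists also changed. Trim59, a membrane-bound member tied to cell growth, measured 17.8 to 31.1 (median 26.2) CPM in healthy and 37.6 to 63.4 (median 46.5) for AA, with no overlap (0.91 ± 0.15, adjusted p = 6.9e-05), and was lower in systemic JAK1i (-0.89 ± 0.15, adjusted p = 5.8e-05). Trim62, a regulator of epithelial polarity, measured 12.7 to 32.5 (median 16.3) CPM in healthy, 23.9 to 40.98 (median 29.03) for AA, 12.7 to 13.6 (median 13.4) under JAK1i and 23.8 to 36.5 (median 26.1) off treatment. It rose in AA by 0.71 ± 0.18, adjusted p = 0.0026, although healthy replicate B, at 32.5 CPM, lay within the AA range, and was lower in systemic JAK1i with no overlap (-1.18 ± 0.18, adjusted p = 1.6e-05). Trim39, a regulator of cell cycle and apoptosis, rose in AA (0.33 ± 0.07, adjusted p = 0.001), from 34.1 to 43.2 (median 38.9) CPM to 46.5 to 53.2 (median 47.6).

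Trim44, which carries a ubiquitin-protease zinc finger in place of a RING, was lower in AA (-0.44 ± 0.10, adjusted p = 0.0013), at 82.6 to 112 (median 102) CPM in healthy and 60.3 to 89.6 (median 73.9) for AA, and higher in systemic JAK1i than in AA with no overlap (0.42 ± 0.10, adjusted p = 0.0015). Trim37, which acts at peroxisomes and centrosomes, was lower in AA (-0.39 ± 0.10, adjusted p = 0.0029) and higher in systemic JAK1i than in AA (0.32 ± 0.10, adjusted p = 0.0087). Trim46, which bundles microtubules at the start of axons, was scarce, at 0.979 to 2.29 (median 1.51) CPM in AA, 0.299 to 1.36 (median 0.601) under JAK1i and 1.26 to 3.33 (median 2.32) off treatment. It was not called in AA against healthy (0.33 ± 0.34, adjusted p = 0.45), was lower in systemic JAK1i than in AA (-1.28 ± 0.37, adjusted p = 0.0048) and was higher off treatment than on it (1.75 ± 0.36, adjusted p = 0.00041). Trim46 passed the filter through 1 healthy, 2 AA and 4 off treatment libraries and 0 systemic JAK1i libraries. Its calls against systemic JAK1i carry that limit. The other tested microtubule members, Trim36 and Trim67, passed in no comparison.

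**Figure D3:**
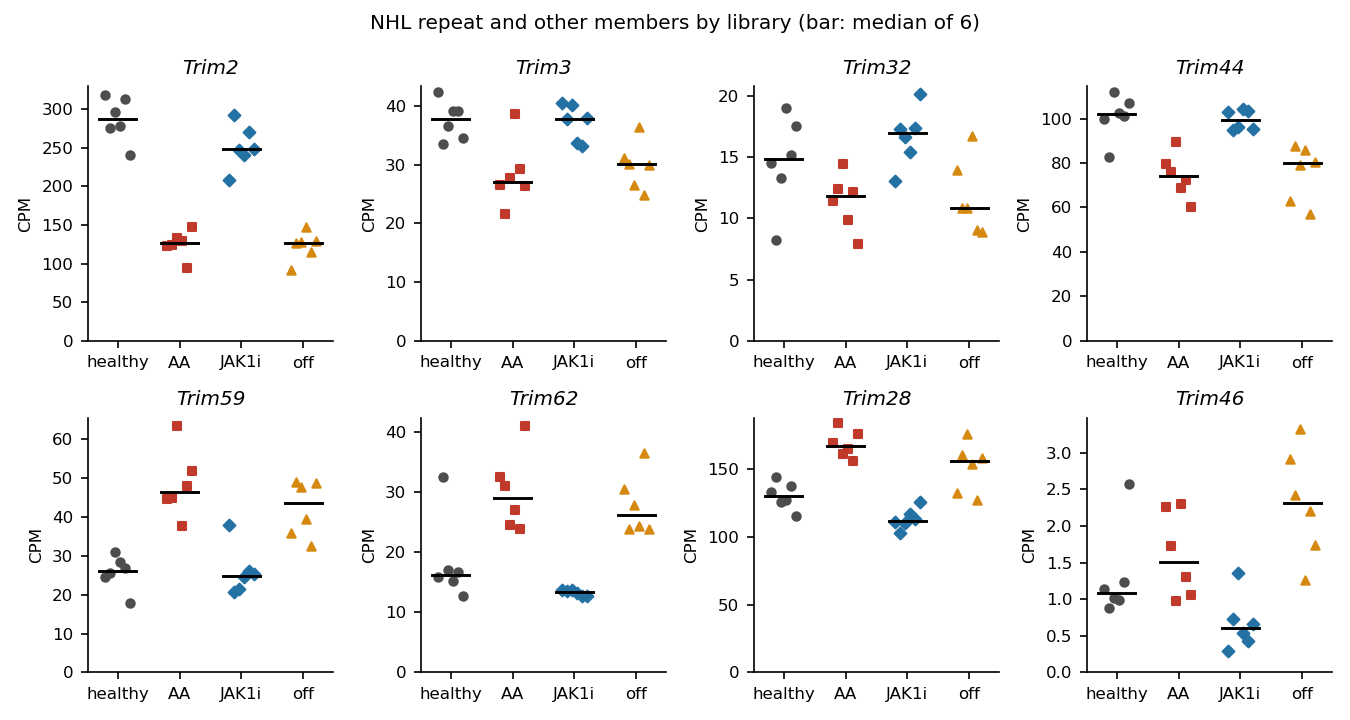
CPM (linear axes from 0) of 8 further members in 6 libraries of each group, with a bar at the group median. Trim2 falls to 94.5 to 147.5 CPM in AA and returns to 208 to 292.5 in JAK1i, while Trim62 in JAK1i stays between 12.7 and 13.6.

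AA against healthy and off treatment against systemic JAK1i share no library, so their calls can be set beside each other. Of 15 members higher in AA and 18 higher off treatment, 14 were in both (93.3% and 77.8%, beside 64.8% and 69.9% over all genes called higher): Trim11, Trim12c, Trim21, Trim25, Trim27, Trim28, Trim30a, Trim30d, Trim34a, Trim34b, Trim39, Trim56, Trim59 and Trim62. Of 5 lower in AA and 6 lower off treatment, 3 were in both (60% and 50%, beside 57.5% and 66.9% over all genes called lower): Trim2, Trim3 and Trim44. No member was called in opposite directions, beside only 28 of all 16248 genes tested. The sign of log2 fold change was the same for 38 of 46 members (82.6%, beside 78.3% of all genes tested). Trim3 was lost from the second list without off treatment replicate C (adjusted p = 0.06) or E (0.075) or systemic JAK1i replicate A (0.053) or C (0.051), and Trim34a, at 0.048, without any 1 of 10 of the 12 libraries.

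The striated muscle members spread widely among libraries of 1 group. Trim54, Trim55 and Trim63 are the muscle RING finger proteins of the sarcomere, of which Trim63 is the ligase of muscle wasting, and Trim72 seals breaks in the muscle membrane. Trim63 measured 0.744 to 30.6 (median 15.5) CPM in healthy, 12.5 to 35.96 (median 22.2) for AA, 23.96 to 40.7 (median 28.5) under JAK1i and 13.04 to 39.2 (median 22.8) off treatment, and Trim54 0.711 to 20.1 (median 6.16), 6.36 to 17.7 (median 10.2), 15.7 to 23.4 (median 19.4) and 9.26 to 28.5 (median 19.3). Healthy libraries alone spanned most of the range, with A and E lowest. None of the 4 passed in any of the 6 group comparisons (Trim63 in AA against healthy 0.57 ± 0.52, adjusted p = 0.4, Trim54 0.45 ± 0.51, adjusted p = 0.51).

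On the muscle score 5 of 46 members had a slope (10.9%), all positive, beside 5.0% of all genes tested. The slopes were 0.80 ± 0.06, adjusted p = 1.9e-10 for Trim54, 0.86 ± 0.09, adjusted p = 4.3e-09 for Trim55, 0.79 ± 0.07, adjusted p = 3.4e-09 for Trim63 and 0.39 ± 0.04, adjusted p = 4.6e-07 for Trim72, beside a median slope of 1.03 for the 20 muscle genes that make up the score. These 4 passed in every alternative tried, including without healthy libraries A and E. Trim23, a member with a GTPase domain, was at the threshold (0.11 ± 0.03, adjusted p = 0.049) and was lost without any 1 of 21 of the 24 libraries, with adjusted p up to 0.38 (healthy replicate E). Trim7, which binds glycogenin in muscle, did not follow the muscle score (0.11 ± 0.06, adjusted p = 0.35). Antisense genes share 26.6% of the exon bases of Trim54 (Gm15469) and 27.6% of those of Trim72 (Gm15533).

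With the muscle score as a covariate, 2 of these members passed in systemic JAK1i against AA: Trim55 at a log2 fold change of -0.74, adjusted p = 0.0077, and Trim63 at -0.55, adjusted p = 0.031. Without the covariate their differences were 0.22 ± 0.51, adjusted p = 0.74 and 0.38 ± 0.50, adjusted p = 0.55, in the opposite direction. With the covariate they were lower in systemic JAK1i, and without it they were not called. The muscle scores of these groups did not overlap (7.88 to 9.39 in AA, 9.57 to 9.95 in systemic JAK1i). The adjusted difference therefore leans on a slope shared by all groups, and no conclusion is drawn from it.

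**Figure D4:**
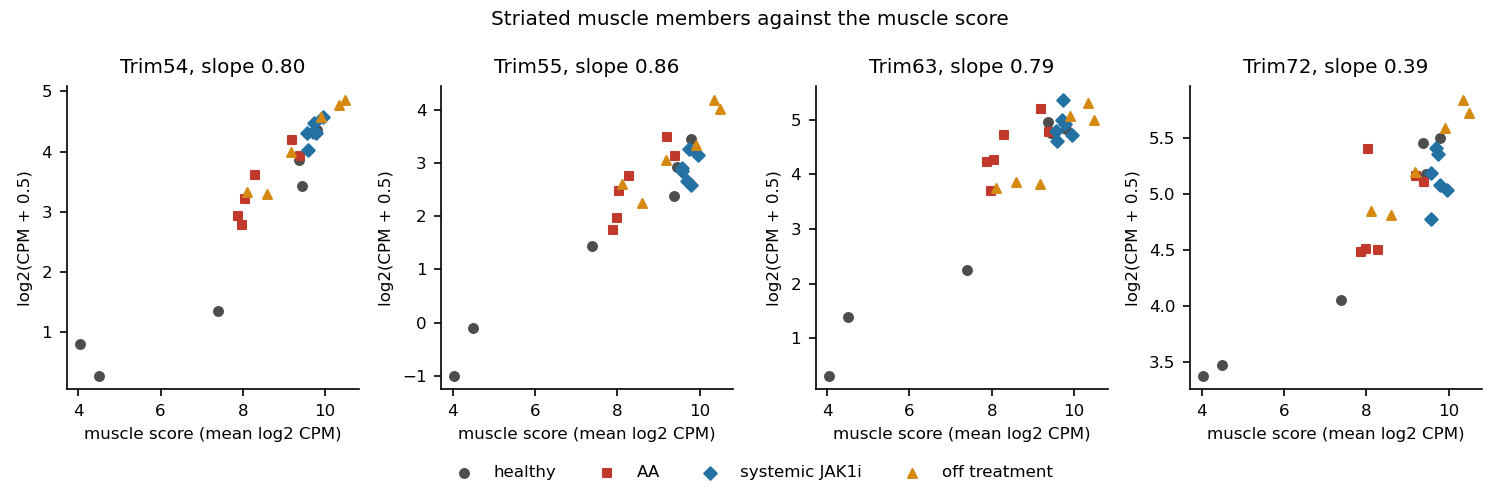
log2(CPM + 0.5) of Trim54, Trim55, Trim63 and Trim72 against the muscle score (mean log2 CPM of 20 muscle genes) in 24 libraries, with marker and colour by group and the fitted slope above each panel. The slopes, each shared by all groups, are 0.80, 0.86, 0.79 and 0.39, and the healthy libraries at the lower left are A and E. Systemic JAK1i scores span only 9.57 to 9.95, and a rise is not seen within that group for every member. There, Trim63 was 25.9 CPM in B, the highest score, and 40.7 in D, at a score of 9.74.

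None of the 3 tested members on the epithelium list (Trim15, Trim16 and Trim29) passed in a group comparison. Trim62, which is not on that list, did, as given above. Trim29, a member without a RING domain that is abundant in stratified epithelia, was the most abundant member per length in all 4 groups, at 137 ± 20.7 TPM (SD, n = 6) in healthy skin and 115 ± 29.7 in AA, then 152 ± 5.79 on JAK1i and 72.3 ± 24.2 off treatment. Trim28 came next in each group (32.6 ± 4.46, 38.3 ± 15.7, 38.6 ± 2.56 and 19.9 ± 7.81 TPM). TPM values of off treatment libraries were low for most genes, so these levels order members within a group and not groups. In CPM, Trim29 measured 594 to 1125 (median 865) in healthy and 718 to 1263 (median 818) for AA, with a log2 fold change of 0.04 ± 0.13, adjusted p = 0.84. Trim16, a ligase of keratinocyte differentiation, at 33.3 to 43.2 (median 35.8) CPM in healthy and 24.7 to 46.8 (median 32.9) for AA (-0.07 ± 0.12, adjusted p = 0.67), and Trim15 (0.31 ± 0.30, adjusted p = 0.43) passed in no comparison, and Trim31 and Trim40, members of the gut, had too few counts to test.

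On the interfollicular keratinocyte score 7 of 46 members had a slope (15.2%), 3 positive and 4 negative, beside 18.4% of all genes tested, so the family held no more of them than the table as a whole. The positive slopes were 0.97 ± 0.18, adjusted p = 0.00029 for Trim62, 0.67 ± 0.14, adjusted p = 0.002 for Trim29 and 1.01 ± 0.27, adjusted p = 0.011 for Trim7. Trim62 and Trim29 passed with each library left out in turn, and Trim7 was lost without off treatment libraries A and E together (adjusted p = 0.069) and with all 4 scores in 1 fit (0.18). Trim7 also had the 1 negative slope on the interferon score (-0.61 ± 0.13, adjusted p = 0.0081) and was higher in systemic JAK1i than in AA (0.66 ± 0.22, adjusted p = 0.017), at 31.9 to 69.2 (median 54.4) CPM in AA and 59.1 to 92.4 (median 85.4) under JAK1i.

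The negative keratinocyte slope of Trim44 (-0.64 ± 0.09, adjusted p = 2e-05) passed with each library left out in turn. The others belonged to the antiviral cluster: Trim30a (-1.38 ± 0.37, adjusted p = 0.015), Trim12c (-0.78 ± 0.22, adjusted p = 0.017) and Trim34b (-1.30 ± 0.40, adjusted p = 0.025). Without off treatment replicate E their adjusted p was 0.052, 0.085 and 0.094. That library had the highest keratinocyte score of its group, 9.55, and the lowest interferon score, 5.09. Off treatment replicate B had the highest interferon score of the group, 6.96, and a keratinocyte score of 8.92. Slopes on these 2 scores are therefore not separate results. Trim12c was also lost without healthy replicate B (0.13), and Trim34b without healthy replicate B (0.093), healthy replicate F (0.052) or AA replicate C (0.055).

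**Figure D5:**
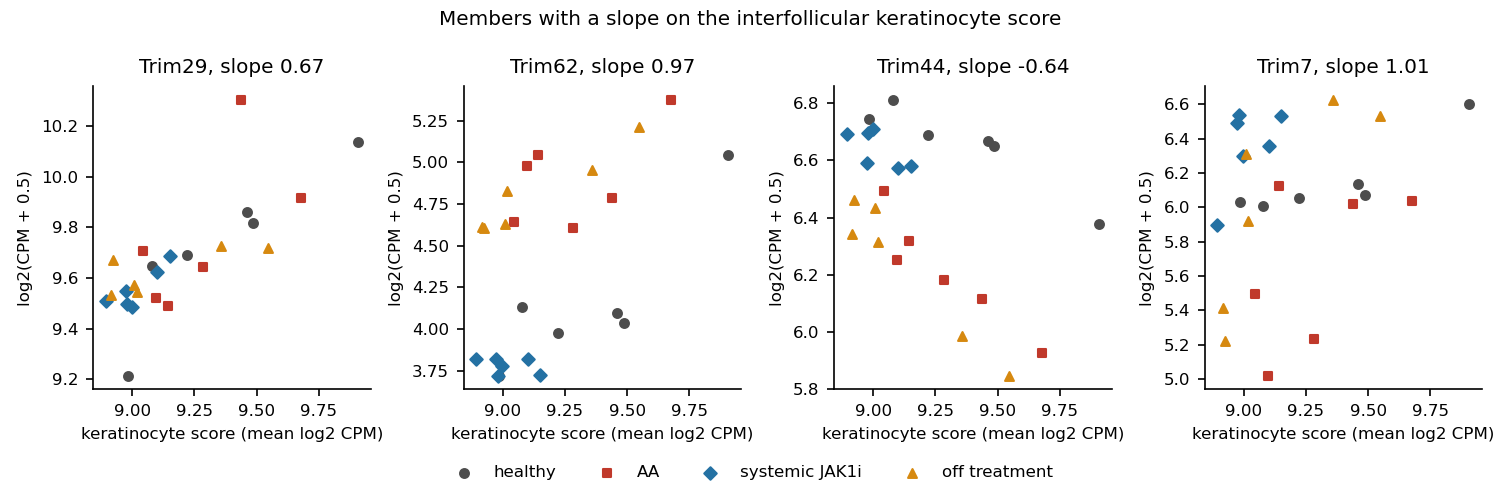
log2(CPM + 0.5) of Trim29, Trim62, Trim44 and Trim7 against the interfollicular keratinocyte score (mean log2 CPM of 21 genes) in 24 libraries, with marker and colour by group and the fitted slope above each panel. The slopes, each shared by all groups, are 0.67 for Trim29, 0.97 for Trim62 and -0.64 for Trim44. Trim62 and Trim44 are also offset between groups. A single group need not follow the shared slope: in JAK1i, Trim62 was 13.6 CPM at the lowest score (A) and 12.7 at the highest (F).

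On the anagen hair score 9 of 46 members had a slope (19.6%), 8 positive and 1 negative, beside 9.93% of all genes tested. They were Trim12c, Trim14, Trim21, Trim30a, Trim30d, Trim34b, Trim44 and Trim56, and Trim7 with a negative slope (-0.14 ± 0.04, adjusted p = 0.014). The count rested on off treatment replicate E, the library with the lowest hair score of its group: without it 0 members had a slope (9 at an unadjusted p under 0.05 by edgeR), and adjusted p ran from 0.051 for Trim7 to 0.55 for Trim56. The count was 5 without healthy replicate B or off treatment replicate A, 2 without off treatment replicate B and 4 without off treatment replicate F, and 0 with all 4 scores in 1 fit (2 at an unadjusted p under 0.05).

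TRIM proteins with symbols outside the rule were looked at as a list of 5. Pml, the scaffold of nuclear bodies and an interferon-induced TRIM protein, rose in AA (1.09 ± 0.19, adjusted p = 0.00013), was lower in systemic JAK1i than in AA (-1.31 ± 0.19, adjusted p = 1.4e-05) and had a slope on the interferon score (0.65 ± 0.08, adjusted p = 1.6e-05). Mefv, the inflammasome sensor pyrin, had a slope on the interferon score too (1.49 ± 0.27, adjusted p = 0.001) but no call between AA and healthy (-0.49 ± 0.44, adjusted p = 0.4), and Mid1, a microtubule-bound ligase, was lower in AA (-0.50 ± 0.16, adjusted p = 0.013). Mid2, its relative, was not called there (-0.13 ± 0.09, adjusted p = 0.28). Mefv and Mid1 were named after their values were seen. Cmya5, a muscle protein of the costamere, had no call between groups and a slope on the muscle score (0.88 ± 0.03, adjusted p = 1.4e-16). A further list held partners of RNA and DNA sensing, among them receptors, adaptors and kinases. Some of its genes are also on the interferon list, so its counts are not separate from the interferon score. Of 10 tested, 5 were higher, 0 lower and 5 not called in AA against healthy skin, beside 20.9% higher and 19.3% lower over all genes. In systemic JAK1i against AA, 0 were higher and 5 lower, beside 22.9% and 24.8%. Ddx58, which encodes RIG-I, the target of Trim25, rose in AA by 1.09 ± 0.16, adjusted p = 2.2e-05, and Tmem173, which encodes STING, the partner of Trim56, by 1.33 ± 0.35, adjusted p = 0.0046.

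Of the 46 tested members, 16 passed in no group comparison, and 10 of these had no slope either: Trim15, Trim16, Trim17, Trim33, Trim36, Trim43c, Trim45, Trim47, Trim67 and Trim68. The remaining 21 members did not reach the tests: Trim5, Trim9, Trim10, Trim12a, Trim30b, Trim30c, Trim31, Trim38, Trim40, Trim42, Trim43a, Trim43b, Trim50, Trim52, Trim58, Trim60, Trim66, Trim69, Trim71, Trim75 and Trim80. Their totals over 24 libraries ran from 0 (Trim52) to 198 counts (Trim43b), and no comparison was made for them. Trim10 and Trim58, the erythroid members, were among them.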

How the data were processed

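Total RNA of dorsal skin was sequenced as paired reads of ribosomal RNA-depleted, stranded libraries without fragmentation. The authors aligned reads with HISAT2 2.0.1 to mm10 and counted them with featureCounts 1.4.4, and the deposited count table gives whole-number counts per gene ID, not normalized. The deposited TPM table holds TPM values, the authors' transcript abundance scaled by length and depth. The annotation release, the strand and multi-mapping settings and the TPM tool are not stated in the material read. The labels also name polyA RNA. Each table holds 6 columns of no sample, which were not used.

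Counts were tested with edgeR 4.0.16 (R 4.3.3, quasi-likelihood, TMM, filterByExpr with a minimum count of 10) in 1 fit of 4 groups, with Benjamini-Hochberg adjustment over 16248 genes and a threshold of 0.05. Slopes came from fits of group plus 1 score, and CPM used TMM-scaled library sizes. Library totals of 3444193 to 11233020 counts limit scarce members. Labels letter the replicates without naming the mouse, so p-values measure the spread between these samples, which may be technical. Alternatives were DESeq2 1.42.0, limma 3.58.1 (voom, and TPM with a pseudocount of 0.1 or 1), other scalings and filters, leaving out libraries, a muscle covariate and a replicate block. The fits were tested on simulated data. Promoters came from RefSeq (GRCm38.p6). Members on role lists, and otherwise the 5 with the smallest adjusted p in each direction, were named, with the 2 smallest adjusted p or highest CPM of other lists. Tmem173 met neither rule in AA against healthy, where Ddx58 and Tbk1 had smaller adjusted p and Traf6 and Ikbkg had higher CPM. Members and lists were chosen with earlier results of these data known. Trim61 was not analysed here.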

Additional observations from a re-analysis of the deposited data

Results flagged for a closer look

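Of 200 groups of 6 libraries checked (46 members and the 4 scores in 4 groups), 11 held a library that lay far from the other 5, and chance alone gives about 1 in 20. Trim11 was 65.6 CPM in AA replicate C, below the 79.7 to 87.2 of the other 5. Trim16 was 43.2 CPM in healthy replicate B, above the 33.3 to 36.97 of the other 5. Trim27 was 34.5 CPM in off treatment replicate B, below the 43.9 to 49.6 of the other 5. Trim30a was 9.66 CPM in healthy replicate B, below the 15.98 to 18.9 of the other 5. Trim46 was 2.57 CPM in healthy replicate F, above the 0.878 to 1.24 of the other 5. Trim59 was 37.9 CPM in systemic JAK1i replicate A, above the 20.6 to 26.2 of the other 5. Trim62 was 32.5 CPM in healthy replicate B, above the 12.7 to 17 of the other 5. Trim7 was 96.6 CPM in healthy replicate B, above the 63.8 to 69.7 of the other 5. Trim8 was 68.4 CPM in AA replicate D, above the 40.9 to 50.7 of the other 5. Trim8 was 47.5 CPM in systemic JAK1i replicate F, above the 31.1 to 36.6 of the other 5. The interferon score was 4.34 in systemic JAK1i replicate A, above the 3.37 to 3.66 of the other 5. Healthy replicate B gave 4 of the 11, systemic JAK1i replicate A 2, and no other library more than 1. Healthy replicate B had the highest interfollicular keratinocyte score of the 24 libraries, 9.91.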

How the results depend on the processing

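Over all results and alternatives, 4991 values kept direction and side of the threshold, 522 lost and 76 gained a call, 136 moved and 18 turned direction. With each library left out in turn, 18 to 22 members passed in AA against healthy, 26 to 29 in systemic JAK1i against AA, 18 to 24 in off treatment against systemic JAK1i, 12 to 20 in off treatment against healthy, 0 to 3 in systemic JAK1i against healthy (3 without healthy replicate F) and 0 in off treatment against AA. Slopes numbered 5 to 9 for interferon, 4 to 6 for muscle, 5 to 9 for keratinocyte and 0 to 10 for anagen hair. Uncentred TPM with a pseudocount of 0.1 gave 2 members in AA against healthy, 3 in off treatment against AA, 28 in off treatment against healthy and 1 in systemic JAK1i against healthy, and slopes for 0 members on interferon, 3 on anagen hair and 34 on keratinocyte. A pseudocount of 1 gave 2, 3, 26 and 2 members in those comparisons. With no filter TPM gave 2 in AA against healthy and 43 in off treatment against systemic JAK1i, and centring gave 1 in off treatment against AA. limma-voom with quality weights gave 11 in systemic JAK1i against healthy. Without healthy libraries A and E, 11 passed in off treatment against healthy. With all 4 scores in 1 fit 4 members had an interferon and 0 an anagen hair slope. Without off treatment libraries A and E, chosen after seeing the data, these were 4 and 0, and counts with no filter gave 4 anagen hair slopes. With a prior count of 0.5, systemic JAK1i passed against healthy for muscle (score difference 2.33) and against AA for keratinocyte (-0.268).

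Relative to the median of all genes, Trim28 in off treatment against healthy was -0.0077 with centred TPM, -0.00034 with a pseudocount of 0.1, -0.17 with no filter and -0.16 with a pseudocount of 1, and against systemic JAK1i -0.054 with no filter and -0.097 with a pseudocount of 1. Trim6 was -0.025, -0.011, -0.17 and -0.0091 off treatment against systemic JAK1i under those 4 settings, and 0.035, 0.0085, 0.11 and 0.028 in systemic JAK1i against AA. Trim32 was 0.057 off treatment against systemic JAK1i with a pseudocount of 1. Trim30a had an anagen hair slope of -0.035 with all 4 scores in 1 fit. With the muscle covariate Trim55 was -0.74 and Trim63 -0.55 in systemic JAK1i against AA. The cause of these turns was not tested.

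Same-letter deviations from the group means correlated from -0.237 to 0.414 over 36 pairs of libraries, median -0.0444, with 6 over 0.1. Between systemic JAK1i and off treatment, the groups that share mice, they ran from -0.217 (A) to 0.383 (E). Pairs of different letters were not set beside them, so whether the letters pair samples cannot be told from these values. A replicate block gave 21, 26, 0, 21, 0 and 16 members in AA against healthy, systemic JAK1i against AA and against healthy, and off treatment against systemic JAK1i, AA and healthy, and 6, 5, 7 and 7 slopes on interferon, muscle, keratinocyte and anagen hair. Depth limits what can be said of Trim30d, which had 12 counts over the healthy group.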
